A study of Mus musculus with 36 samples.

Results

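The 159 Zfp genes described here encode zinc finger proteins expressed in mouse embryonic stem (mES) cells. They were taken by symbol, as Zfp followed by a number, leaving out Zfp36, Zfp42 and Zfp352, and each was required to have at least 100 reads in every one of the 36 libraries. Of 362 such symbols listed in the tables, 159 met the minimum and 203 did not. In the whole series 22979 genes were listed and 7011 met the same minimum, so that 6852 other genes were available for comparison. The members just inside the minimum were Zfp90 and Zfp212, each with 100 reads in its lowest library, and those just outside were Zfp950 and Zfp819, each with 99.

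Zfp proteins of this type read DNA through tandem C2H2 fingers, in which a pair of cysteines and a pair of histidines hold a zinc ion. Many also carry a KRAB domain, which binds the corepressor Trim28 (KAP1) and, through it, the histone methyltransferase Setdb1, and these proteins silence retroelements and protect imprinted loci in mES cells and the early embryo. KRAB genes multiply by local duplication and often lie in arrays of near-identical copies.

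The study depleted a protein acutely in each of 3 mES cell lines and followed RNA turnover by SLAM-seq, in which 4-thiouridine (4sU) built into new RNA is read as T-to-C mismatches. Each line was a single clone (12D for METTL3, Y12H for YTHDC1, Z12H for ZCCHC8) in which the named protein was fused to an FKBP12 degron tag, so that dTAG-13 removes it. METTL3 is the catalytic subunit of the enzyme that places N6-methyladenosine (m6A) on RNA, YTHDC1 binds m6A in the nucleus, and ZCCHC8 holds together the NEXT complex that hands nuclear RNA to the exosome. Every line had a Ctrl arm and a dTAG arm, 3 chase times (0, 90 and 180 min) and 2 replicates. All 36 libraries, controls included, came from cells whose endogenous Xist promoter on the 129S allele had been replaced with a TetOn promoter and which received doxycycline at 1 µg/ml. Doxycycline was given for 20 h and then together with 500 µM 4sU for a pulse of 4 h, and the chase was in doxycycline with 50 mM uridine. In the dTAG arm dTAG-13 was added 2 h before doxycycline. No line without a degron tag was analysed here, so an effect of dTAG-13 itself and loss of the tagged protein cannot be told apart. The tag acts on the protein, and the read counts of the tagged gene's mRNA do not show whether depletion worked.

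Library totals ran from 5274684 to 18652000 reads, at 9547507 to 18652000 in the METTL3, 10397753 to 16129632 in the YTHDC1 and 5274684 to 10257631 in the ZCCHC8 line. The summed level of 9 mES cell markers was 2537 to 3675 CPM (reads per 1000000 reads of the library) across libraries, against 7.50 to 31.2 CPM for 8 markers of feeder fibroblasts and 12.4 to 49.1 CPM for 6 markers of differentiated cells. No marker of any of these lists was at 0 in all libraries. The study states that the wells of a replicate came from 1 batch of cells. Samples of 1 line with the same replicate number thus share a culture. The main models hold no term for the replicate, so their p-values treat samples of 1 batch as independent. Models with the replicate number as a block take the difference between the batches out. With 2 replicates, neither kind of p-value measures the spread over further cultures. In bulk RNA, fewer cells of a type and less RNA per cell cannot be told apart.

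Of the 159 members, 87 carried a KRAB box by a pattern search of their coding sequences and 72 did not. This split was chosen after the data were seen. The pattern may miss a degenerate box, so a member without KRAB is here one in which no match was found. The members had a median of 11 finger matches, with 12 in the KRAB group, 8 in the rest and 37 at most, and 3 members had none. The first finger of 9 members is shown here to give a view of how alike or unlike such fingers are: 6 lie on chromosome 4, and Zfp936, Zfp386 and Zfp57 lie elsewhere. The coding bases are given 5′ to 3′ from the mm10 annotation, with the codons of the 2 cysteines and 2 histidines in capitals.
Zfp534: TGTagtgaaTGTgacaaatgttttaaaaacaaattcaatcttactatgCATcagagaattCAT
Zfp987: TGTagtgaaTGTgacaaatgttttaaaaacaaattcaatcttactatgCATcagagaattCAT
Zfp988: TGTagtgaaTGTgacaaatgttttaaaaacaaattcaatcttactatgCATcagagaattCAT
Zfp990: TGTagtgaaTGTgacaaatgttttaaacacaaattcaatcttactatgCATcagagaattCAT
Zfp984: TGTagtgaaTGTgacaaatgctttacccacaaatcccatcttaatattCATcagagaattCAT
Zfp985: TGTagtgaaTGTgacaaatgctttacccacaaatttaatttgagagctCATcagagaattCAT
Zfp936: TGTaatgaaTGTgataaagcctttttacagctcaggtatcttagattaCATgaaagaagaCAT
Zfp386: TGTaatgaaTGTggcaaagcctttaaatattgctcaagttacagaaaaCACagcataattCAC
Zfp57: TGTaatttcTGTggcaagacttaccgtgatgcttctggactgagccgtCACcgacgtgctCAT
Over these 63 bases Zfp987 and Zfp988 matched Zfp534 at every position, and Zfp990 differed from it at 1. Zfp984 was 87.3% identical to Zfp534, Zfp985 81.0%, Zfp936 61.9%, Zfp386 58.7% and Zfp57 42.9%.

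The repeats extend beyond the first finger. When the longest coding transcript of each member was cut into all its 50-base words, 30 members shared at least 10% of them with transcripts of other genes, and 28 of these were KRAB members. The authors kept only reads that aligned to 1 place, so counts of these genes rest on the parts of the transcript that differ. By position, 73 members (61 of them KRAB) lay in 25 runs in which neighbours were within 200 kb, and 86 lay alone. The chromosomes with most members were 7 (33 members), 17 (18) and 4 (18). An exon of an antisense gene overlapped 41 members and an exon of a same-strand gene overlapped 9, and whether the counting used strand is not given in the sources used here.

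As transcripts the members had a long longest exon and a low GC content. The longest exon had a median of 2885 bases in members against 1317 in the other genes over the minimum, with 5 exons against 10, and the median GC content was 43.5% against 49.8% (40.2% in KRAB members and 48.6% in the rest). The letters GGACT, a common core of m6A sites, occurred 0.770 times per kb in members and 1.01 times in the other genes. Their reads were modest, with a median over members of 52.0 CPM (43.3 in KRAB members, 66.3 in the rest, 73.8 in the other genes), uncorrected for length.

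The promoters of the KRAB members differed in composition from those of the rest. RefSeq windows from 250 bases before to 50 after the start, of build GRCm38.p6, were at hand for 127 of 159 members. The median window held 10 CG pairs in 74 KRAB members and 20 in 53 members without KRAB, against 23 in 5382 other genes over the minimum and 7 in all 27025 windows. The GC box letters GGGCGG, searched on both strands, were present in 39.2% of KRAB windows and 67.9% of the rest, against 68.9% of the other genes over the minimum and 35.6% of all windows. The CCAAT letters were present in 62.2% and 39.6%, against 39.1% and 37.8%, and TATAAA in 5.41% and 7.55%, against 5.98% and 14.1%. A match describes the letters only.

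Label was measured as the new-to-total ratio, which is GRAND-SLAM's estimate of how much of a gene's RNA was made in the presence of 4sU, taken at the maximum of its posterior (MAP) and estimated in 6 separate tables, 1 for each line and replicate. Most Zfp reads were assigned to new RNA after the 4 h pulse. In Ctrl cells the median ratio of the members at 0 min was 0.913 ± 0.034 (SD over 6 tables; range 0.853 to 0.944), and 90 min and 180 min into the chase it was 0.690 ± 0.077 and 0.419 ± 0.083. The 4814 other genes of like read level, between 28.2 and 149 CPM, had medians of 0.594 ± 0.029, 0.618 ± 0.046 and 0.467 ± 0.064. Per table, 152 to 154 of the 159 members lay above the median of the other genes at 0 min, and among KRAB members it was 86 or 87 of 87. Ctrl medians at 0 min were 0.925 for KRAB members and 0.900 for the rest, so the high ratio was not limited to the KRAB group.

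**Figure D1:**
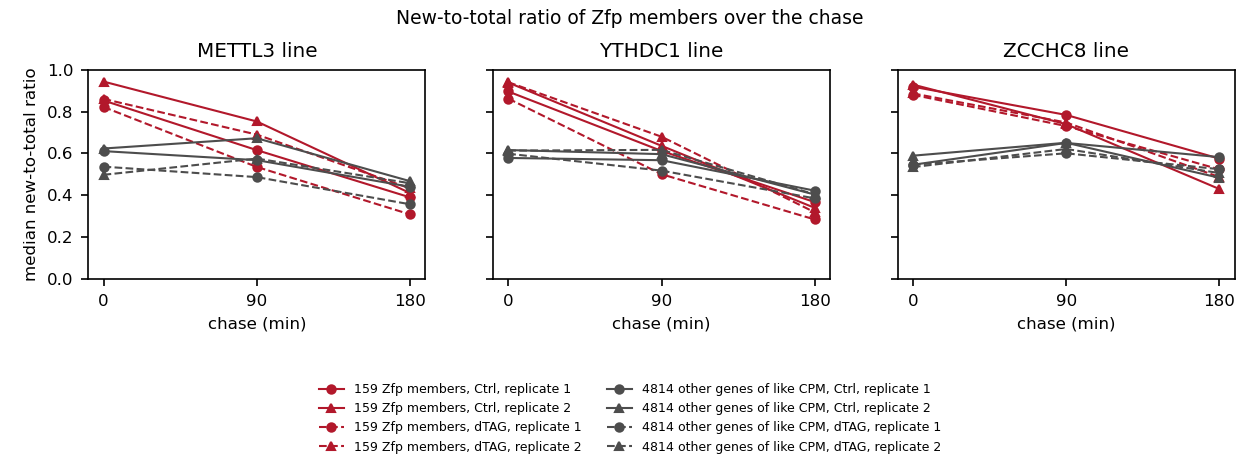
Median new-to-total ratio (vertical axis, 0 to 1) against chase time in minutes, with 1 panel for each line, for the 159 Zfp members (red) and 4814 other genes of like CPM (grey). Solid lines are Ctrl, dashed lines dTAG, circles replicate 1 and triangles replicate 2; the members start near 0.9 in Ctrl and fall below the grey lines by 180 min in most tables, while the grey lines stay between 0.357 and 0.673.

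The difference was smaller against genes of like transcript form. A set of 1223 other genes of like CPM was matched to the KRAB members in GC content and longest exon. Their GC content was 36.2% to 48.8% and their longest exon at least 1568 bases, limits that were not set from members without KRAB. The median ratio of this set at 0 min was 0.726, between that of all like genes and that of the members. The raw T-to-C rate, the share of covered T positions read as C, gave the same order, with 7.95% ± 1.02 in members and 4.94% in like genes at 0 min, falling to 2.30% and 2.69% at 180 min. The loss was summarised per table by a line through log2 ratio against time. The median half-life of label was 175 ± 54.6 min (n = 6, 125 to 282) in members, 173 min in KRAB members and 179 min in the rest. These values are means over tables. In like genes the mean was 738 ± 352 min (n = 5, 419 to 1339), over the tables in which the median gene lost label at all. The table without such loss is left out of that mean. The half-life depended on the measure: by the T-to-C rate it was 103 ± 15.2 min in members and 280 ± 90.0 min in like genes. The ratio fell over the chase in 91.2% to 98.7% of members per table and in 41.6% to 67.4% of like genes.

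The members differed among themselves, mostly at the lower end. Zfp1, a KRAB gene on chromosome 8, had the highest ratio at 0 min, 0.975 ± 0.033 (SD, n = 6 tables, 0.918 to 1.00), and fell to between 0.286 and 0.533 at 180 min, with a half-life of 133 min. Zfp867 (0.975 ± 0.031), Zfp317 (0.973 ± 0.024) and Zfp105 (0.971 ± 0.042) followed, each reaching 1.00 in at least 1 table, so that these 4 cannot be ordered. At the other end Zfp277 had 0.271 ± 0.036 (0.210 to 0.311), and its ratio did not fall in any of the 6 tables. Zfp106, an RNA-binding protein and the member with the most reads (832 CPM on average), had 0.311 ± 0.021 and likewise fell in 0 of 6. Zfp512 (0.481 ± 0.026) and Zfp326 (0.488 ± 0.051), a subunit of the DBIRD complex that links transcription to splicing, were next. None of these 4 carried a KRAB box, and the ranges of Zfp277 and Zfp106 overlapped each other but not those of Zfp512 and Zfp326. The shortest-lived of the named members was Zfp367, with a half-life of 88.0 min from a ratio of 0.944. Among 7 factors known for silencing, the half-life was 170 min for Zfp57, the guardian of imprinted methylation, 171 min for Zfp809, which silences murine leukemia proviruses, and 183 min for Zfp568, a repressor of a placental Igf2 transcript. It was 165 min for Zfp961, 213 min for Zfp932, 251 min for Zfp445, another keeper of imprints, and 397 min for Zfp600.

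As label was lost, Zfp reads rose relative to the other genes. In Ctrl cells the members took 1.14% ± 0.082 of all reads at 0 min, 1.28% ± 0.066 at 90 min and 1.49% ± 0.090 at 180 min (SD, n = 6 libraries each), and the ranges at 0 and 180 min (1.02% to 1.24% and 1.37% to 1.58%) did not overlap. Fitted over the chase with edgeR, with a slope in log2 per hour and Benjamini-Hochberg adjusted p under 0.05, 33 members rose and 1 fell in the METTL3 line, where 17.8% of 14185 genes passed (11.7% higher and 6.17% lower). In the YTHDC1 line 72 rose and 1 fell (of all genes 42.5% passed, 22.5% higher and 20.0% lower), and in the ZCCHC8 line 100 rose and 10 fell (of all genes 59.1% passed, 29.9% higher and 29.2% lower). With the replicate number as a block the counts became 84 and 9, 108 and 5, and 102 and 11, where 46.4%, 65.2% and 61.3% of all genes passed. The median slope of the members was 0.11, 0.12 and 0.10 per hour, against −0.02, −0.03 and −0.03 for the other genes over the minimum. Other genes of like CPM whose ratio at 0 min lay within the interquartile range of the members had median slopes of 0.13, 0.15 and 0.16 per hour, each above that of the members. Zfp597, Zfp367 and Zfp81 had the steepest rises. Zfp597, a KRAB gene, rose by 0.39, 0.35 and 0.34 per hour (edgeR adjusted p = 0.017, 0.00234 and 5.28e-07 in the METTL3, YTHDC1 and ZCCHC8 lines), and its exons overlap the antisense Naa60 and Zfp174. Zfp367 rose by 0.37, 0.32 and 0.35 (adjusted p = 0.0154, 0.00105 and 6.04e-05), and Zfp81 by 0.39, 0.29 and 0.36 (adjusted p = 0.00803, 0.0012 and 4.39e-08). Across the 159 members the Spearman correlation between the Ctrl ratio at 0 min and the slope was 0.45, 0.24 and 0.51, against 0.64, 0.73 and 0.73 over the other genes, where the genes share libraries and are not independent. No member fell in all 3 lines. Whether the end of 4sU exposure moved these counts was not tested.

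The effect of depletion on reads was then compared between the dTAG and Ctrl arms of each line, with chase time in the model and 6 libraries per arm. METTL3 depletion raised 10 members and lowered 18 (edgeR's quasi-likelihood test, adjusted p under 0.05), 17.6% of members, where 20.1% of 14413 genes passed (11.3% higher and 8.8% lower), so the share was near that of all genes. The median log2 fold change was −0.02 in members and 0.01 over all genes tested. KRAB members leaned lower, with 4 higher, 14 lower and a median of −0.09, and members without KRAB had 6 higher, 4 lower and a median of 0.08. The 27 other KRAB genes over the minimum, whose symbols do not begin with Zfp, had 0 higher and 11 lower, with a median of −0.49. The METTL3 counts turned on the replicate. With the replicate as a block 33 members were higher and 43 lower (KRAB 13 and 32). In that fit 48.5% of all genes passed (24.4% higher and 24.1% lower). The KRAB medians by pair of libraries were 0.27, −0.01 and −0.09 at 0, 90 and 180 min in replicate 1 and −0.23, −0.21 and −0.31 in replicate 2.

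Single members went well beyond those medians. Zfp131 (chr13:119765187-119790889, minus strand; no KRAB) had 56.9, 67.9 and 83.3 CPM as lowest, median and highest Ctrl library and 95.8, 124 and 163 CPM with dTAG, without overlap of the arms. Its log2 fold change was 0.85 (SE 0.159, edgeR adjusted p = 0.00381). Zfp318 (chr17:46383731-46420920, plus strand), known for controlling the splicing that gives B cells IgD, went from 46.6, 65.8 and 77.2 CPM to 81.1, 107 and 136 CPM, a change of 0.71 (SE 0.110, adjusted p = 0.00148), again without overlap. Zfp334 (chr2:165374264-165388259, minus strand), a KRAB gene, went from 17.4, 21.9 and 23.8 CPM to 31.2, 34.6 and 36.6 CPM (0.68, adjusted p = 0.00178). Zfp1 (0.42, adjusted p = 0.00499) was also higher in every dTAG library than in any Ctrl library, while the arms of Zfp282 (0.61, adjusted p = 0.0221) overlapped.

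Among the members that METTL3 depletion lowered, Zfp760 (chr17:21707741-21725636, plus strand; 17 finger matches and KRAB) had the largest change. It had 42.5, 60.1 and 87.0 CPM in Ctrl and 16.8, 27.1 and 43.3 CPM in dTAG libraries, with overlap at 1 edge (−1.13, SE 0.206, edgeR adjusted p = 0.00348). Zfp346 (chr13:55105311-55134825, plus strand), a binder of double-stranded RNA without KRAB, fell without overlap from 27.3, 32.7 and 47.6 CPM to 13.8, 17.5 and 23.6 CPM (−0.96, SE 0.096, adjusted p = 0.000147), and it shares exon sequence with the antisense Gm17617. Zfp944 (−0.92, adjusted p = 0.00117), Zfp101 (−0.88, adjusted p = 0.0134) and Zfp935 (−0.86, adjusted p = 0.000971), all KRAB genes, completed the 5 largest falls. Zfp935 shares 14.2% and Zfp944 10.4% of their 50-base words with other genes. The other 13 lowered members ran from −0.37 (Zfp507) to −0.85 (Zfp41), and the other 5 raised members from 0.32 (Zfp148) to 0.38 (Zfp263).

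YTHDC1 depletion changed Zfp genes in 1 direction. No member rose and 19 fell (edgeR adjusted p under 0.05), 11.9% of members, where 5.25% of 14199 genes passed (2.48% higher and 2.77% lower). Of the 19, 16 were KRAB members, 18.4% of that group. The median log2 fold change was −0.22 in KRAB members, with 76 of 87 below 0, and −0.05 in members without KRAB (3 fell), against 0.01 in like genes. At an unadjusted p under 0.05, 60 members passed, but the shares of all genes at unadjusted levels are not given in this report. Among the 1223 genes of like CPM that match the KRAB members in GC content and longest exon, 24 rose and 32 fell. Among the 27 other KRAB genes 0 rose and 9 fell, with a median of −0.37. With the replicate as a block 6 members rose and 73 fell (KRAB 1 and 54), where 27.3% of all genes passed (13.2% higher and 14.1% lower). DESeq2 gave 0 higher and 31 lower, without a share of all genes to set beside them. By pair of libraries the KRAB median was −0.03, −0.23 and −0.34 at 0, 90 and 180 min in replicate 1 and −0.27, −0.17 and −0.21 in replicate 2. The median log2 change of the T-to-C rate over KRAB members in the same pairs was −0.28, −0.49 and −0.51 in replicate 1 and 0.03, 0.16 and −0.10 in replicate 2. The KRAB median of reads was thus below 0 in both replicates, while that of label was below 0 at all times in replicate 1 alone, and the part of label in the read counts was not tested.

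Zfp936 (chr7:43114229-43192109, plus strand; KRAB) fell most after YTHDC1 depletion, from 54.2, 68.5 and 82.9 CPM to 27.5, 36.9 and 43.9 CPM without overlap of the arms. The change was −0.93 (SE 0.120, edgeR adjusted p = 0.00203), and 15.2% of its 50-base words occur in other genes. Zfp760 fell here too, from 38.5, 46.8 and 69.2 CPM to 18.1, 26.8 and 44.0 CPM (−0.89, SE 0.147, adjusted p = 0.006), with overlap. Zfp977 (−0.80, adjusted p = 0.0201) fell without overlap, from a Ctrl range of 28.9 to 44.3 CPM to 16.9 to 26.9 CPM. Zfp738 (−0.80, adjusted p = 0.00134) and Zfp329 (−0.77, adjusted p = 0.00379) fell with overlapping arms. Being lower in all 6 pairs of libraries with the same time and replicate was a condition for naming them, so it adds no support. Zfp738 overlaps the antisense Gm26587 and Gm48095. Zfp329 carried no KRAB pattern. The other 14 lowered members ran from −0.33 to −0.64 and were each lower in all 6 pairs: Zfp984, Zfp978, Zfp97, Zfp988, Zfp975, Zfp808, Zfp111, Zfp945, Zfp985, Zfp846, Zfp386, Zfp473, Zfp599 and Zfp664. Of these, Zfp111 (−0.48, adjusted p = 0.00395) and Zfp599 (−0.37, adjusted p = 0.00907) had no overlap between the arms.

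After ZCCHC8 depletion members moved in both directions. In this line 40 members rose and 21 fell (edgeR adjusted p under 0.05), 38.4% of members, where 39.6% of 13962 genes passed (20.1% higher and 19.5% lower). Replicates were more alike here than in the other lines. The scatter between replicates (chi-square over its degrees of freedom) was 2.45 to 4.50 across arms and times. It was 20.3 to 77.9 in the METTL3 and 26.6 to 38.5 in the YTHDC1 line. Smaller changes could thus pass here, and counts of calls do not rank the lines by size of effect. By class, 24 KRAB members rose and 3 fell, with a median of 0.09, and 16 members without KRAB rose and 18 fell, with a median of 0.02. Like genes leaned lower (15.0% higher, 26.4% lower, median −0.04). Of the 27 other KRAB genes 4 rose and 4 fell. With the replicate as a block the members gave 46 and 30 (KRAB 30 and 8), where 45.9% of all genes passed (23.1% higher and 22.8% lower). The median KRAB change was positive in each of the 6 pairs of libraries (0.01 to 0.19).

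**Figure D2:**
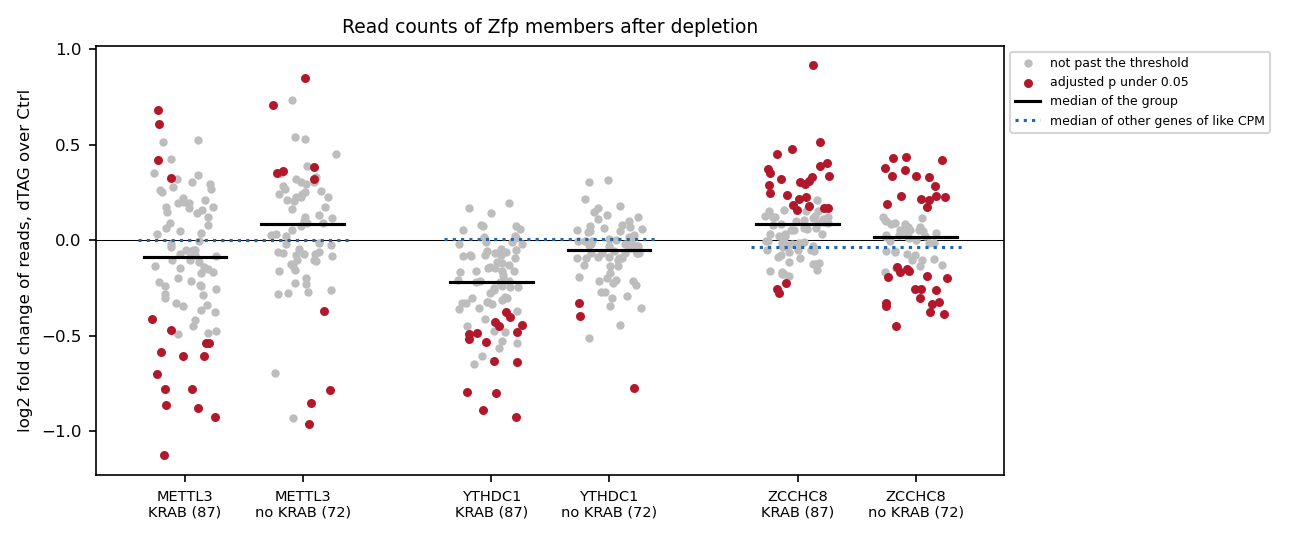
Log2 fold change in reads, dTAG against Ctrl (vertical axis), of each Zfp member in the 3 lines, with KRAB members and members without KRAB side by side. Red points passed an adjusted p under 0.05, black bars are group medians and the blue dotted line is the median of other genes of like CPM; KRAB medians stand at −0.09, −0.22 and 0.09 in the METTL3, YTHDC1 and ZCCHC8 lines.

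Zfp386 (chr12:116047724-116063360, plus strand), a KRAB gene with 9 finger matches and no shared 50-base word, stood far above the rest after ZCCHC8 depletion. It had 69.9, 90.7 and 93.7 CPM in Ctrl and 144, 155 and 195 CPM with dTAG, so that the arms were well separated, and rose by 0.92 (SE 0.055, edgeR adjusted p = 1.77e-12). Zfp935 (chr13:62453016-62466832, minus strand) went from 20.0, 24.1 and 27.95 CPM to 29.9, 35.1 and 40.6 CPM (0.52, SE 0.067, adjusted p = 1.39e-06) and Zfp936 from 85.02, 87.1 and 95.6 CPM to 108, 114 and 145 CPM (0.45, SE 0.054, adjusted p = 3.73e-07), both without overlap. Zfp27 (0.44, adjusted p = 7.51e-05) did not overlap either, and Zfp626 (0.48, adjusted p = 4.76e-05) did. On the lower side, Zfp318 fell from 54.5, 56.8 and 68.7 CPM to 42.5, 45.6 and 47.4 CPM (−0.37, adjusted p = 1.78e-05), and Zfp275 (chrX:73342621-73359080, plus strand) from 39.4, 43.6 and 52.0 CPM to 30.9, 35.3 and 37.8 CPM (−0.35, adjusted p = 0.000112). Neither overlapped. Zfp750, an epidermal differentiation factor (−0.45, adjusted p = 0.0153), Zfp652 (−0.39, adjusted p = 4.14e-06) and Zfp236 (−0.33, adjusted p = 0.00169) fell with overlapping arms. Zfp652 shares exon sequence with Phospho1 on its strand and with Abi3 and Zfp652os on the other, and Zfp236 lost its call without replicate 2 (−0.29). The other 35 raised members ran from 0.16 (Zfp68) to 0.43 (Zfp397), and the other 16 lowered members from −0.14 (Zfp148) to −0.33 (Zfp277).

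Some genes answered in opposite ways in different lines. Zfp386, Zfp936 and Zfp984 were lower after METTL3 depletion, lower after YTHDC1 depletion and higher after ZCCHC8 depletion. The values of Zfp386 were −0.41 (edgeR adjusted p = 0.014), −0.40 (adjusted p = 0.00411) and 0.92, and those of Zfp936 were −0.47 (adjusted p = 0.0171), −0.93 and 0.45. The METTL3 and YTHDC1 lines, which have separate controls, shared 6 lowered members, 33.3% of the 18 in the METTL3 line and 31.6% of the 19 in the YTHDC1 line, where 11.3% of all members were lowered in the METTL3 and 11.9% in the YTHDC1 line. The 6 were Zfp386, Zfp599, Zfp760, Zfp936, Zfp984 and Zfp985. The overlap was not tested, and that among all genes lowered in both lines is not given here. Whether it is particular to Zfp genes is thus not shown. Zfp473 went the other way, higher in the METTL3 line (0.35, adjusted p = 0.0224) and lower in the YTHDC1 (−0.40, adjusted p = 0.0134) and ZCCHC8 (−0.26, adjusted p = 0.000807) lines.

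**Figure D3:**
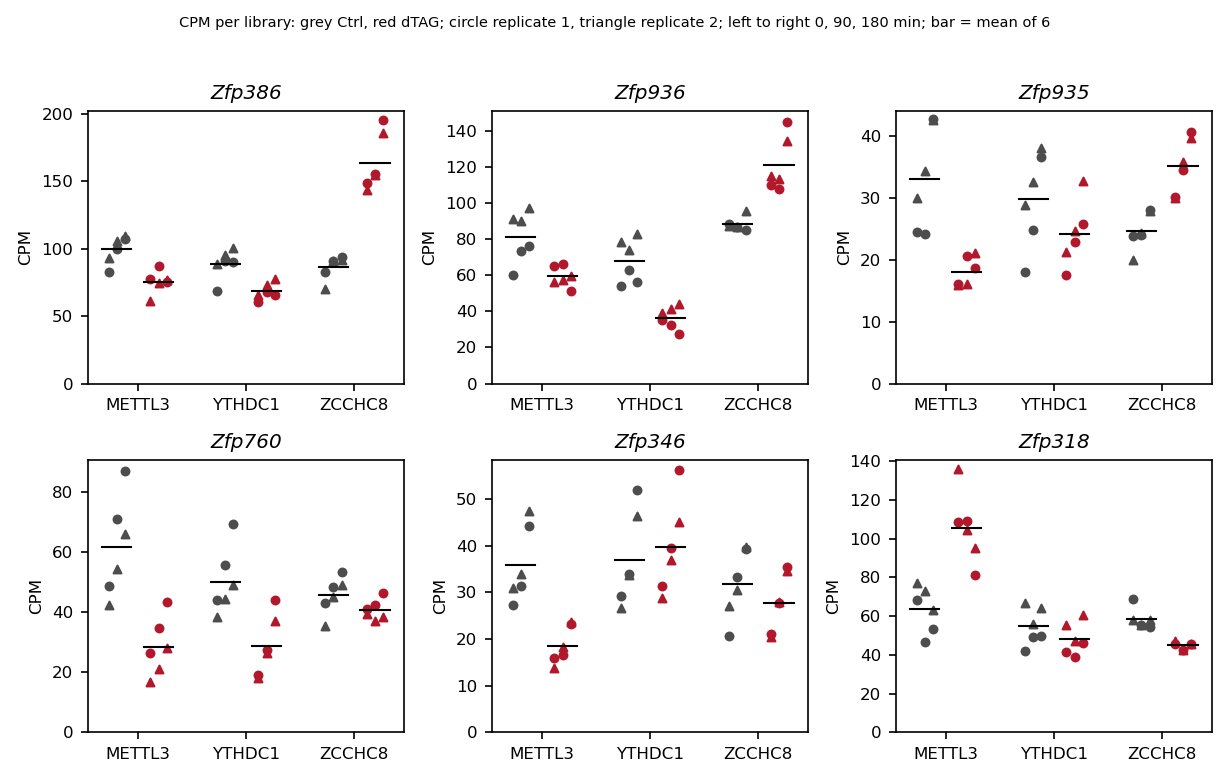
Reads in CPM (vertical axis) of Zfp386, Zfp936, Zfp935, Zfp760, Zfp346 and Zfp318 in each of the 36 libraries, by line, with Ctrl in grey and dTAG in red; the bar is the mean of 6 libraries. Zfp386 sits between 144 and 195 CPM in the 6 ZCCHC8 dTAG libraries, above all 6 of their controls, and every dTAG library of both other lines lies below the mean of its Ctrl arm.

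The difference of responses was tested as an interaction across all 36 libraries, which share 1 estimate of the spread for each gene. As given above, replicates were less alike in the METTL3 and YTHDC1 lines than in the ZCCHC8 line. For METTL3 less YTHDC1 the p-values can thus be too small. Between ZCCHC8 and YTHDC1 depletion 22 members were higher and 3 lower (edgeR adjusted p under 0.05), where 14.4% of 15105 genes passed (7.2% higher and 7.2% lower), and among KRAB members it was 17 and 0, with a median difference of 0.23 against −0.10 in like genes. Between ZCCHC8 and METTL3 depletion 26 were higher and 14 lower (KRAB 19 and 3), where 23.7% of genes passed (11.1% higher and 12.6% lower). Between METTL3 and YTHDC1 depletion 22 were higher and 10 lower (KRAB 11 and 6), where 20.6% passed (10.3% higher and 10.3% lower). Each pair of these comparisons shares a line, so they are not independent. With the replicate as a block the totals were 68, 83 and 79, where 32.3%, 43.5% and 42.8% of all genes passed. The sharpest single differences for ZCCHC8 less YTHDC1 were those of Zfp936 (1.32, SE 0.146, adjusted p = 2.22e-07), Zfp386 (1.26, adjusted p = 1.18e-09) and Zfp329 (1.05, adjusted p = 0.000437). For ZCCHC8 less METTL3 they were Zfp935 (1.33, SE 0.134, adjusted p = 2.54e-08), Zfp386 (1.29, adjusted p = 4.01e-10) and Zfp318 (−1.12, adjusted p = 3.35e-07). For METTL3 less YTHDC1 they were Zfp346 (−1.06, SE 0.113, adjusted p = 1.01e-07), Zfp365 (−0.93, adjusted p = 0.000584) and Zfp318 (0.90, adjusted p = 1.15e-05).

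The arrays did not all behave as 1 group. On chromosome 4, between 147305674 and 147848366, 8 KRAB members (Zfp988, Zfp978, Zfp982, Zfp985, Zfp979, Zfp534, Zfp984 and Zfp933) had median changes of −0.24, −0.48 and 0.23 in the METTL3, YTHDC1 and ZCCHC8 lines, with 2 lower, 4 lower and 5 higher calls. They shared 1.07% to 75.9% of their 50-base words, with a median of 41.0%, so the counts of single copies are uncertain. Zfp984 (57.4% shared) had −0.61 (edgeR adjusted p = 0.00345), −0.64 (adjusted p = 0.0145) and 0.21 (adjusted p = 0.0111). Zfp990, on the same chromosome, had −0.70 (adjusted p = 0.0012), −0.57 (adjusted p = 0.101) and 0.35 (adjusted p = 0.000765). On chromosome 7, between 29768552 and 30169750, the 7 members Zfp84, Zfp790, Zfp27, Zfp74, Zfp568, Zfp260 and Zfp146 share 1.01% of words at most. Their medians were −0.16, −0.12 and 0.17, with 1 lower call, none and 4 higher calls. The 4 members on chromosome 6 around Zfp282 had medians of 0.44, −0.01 and 0.29, with 2 higher calls in the METTL3 line, none in the YTHDC1 line and 3 higher and 1 lower in the ZCCHC8 line.

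Leaving out KRAB members with much shared sequence changed the medians in the METTL3 and YTHDC1 lines. Many of those left out lie on chromosome 4, so shared sequence and that region cannot be told apart. No relation between shared sequence and size of change was fitted. Restricted to the 59 KRAB members with under 10% of shared words, the YTHDC1 count was 0 higher and 8 lower with a median of −0.14 (−0.22 in all 87), and the METTL3 count 4 and 6 with a median of 0.03. The ZCCHC8 count was 15 and 2, and its median is not given here. In the YTHDC1 line the direction was the same without the shared genes and the median was smaller, and in the METTL3 line the lean to lower values was no longer there. The authors had left out reads that map to several places, and what that loss did to these values was not tested.

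**Figure D4:**
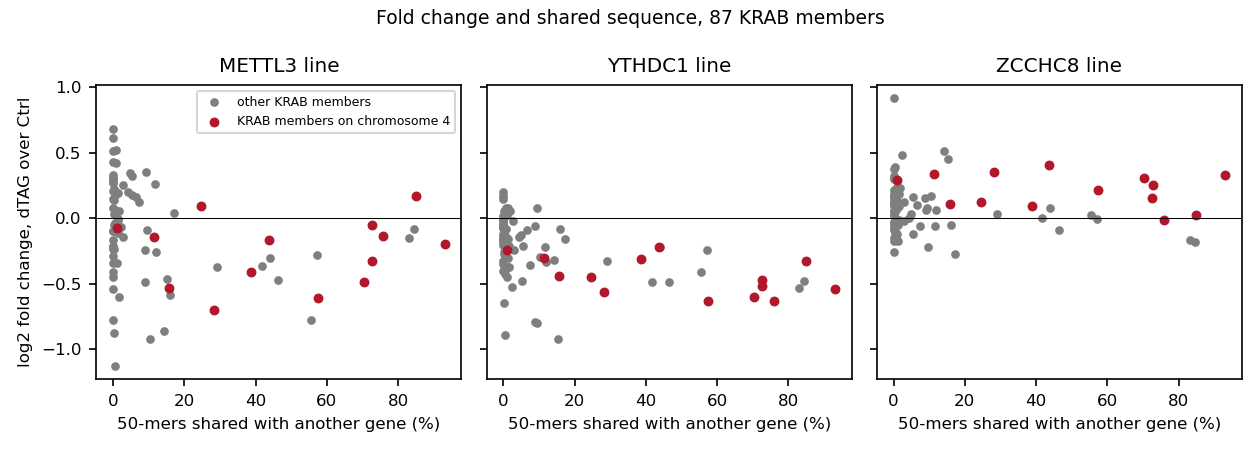
Log2 fold change in reads, dTAG against Ctrl (vertical axis), against the percentage of a transcript's 50-base words found in other genes (horizontal axis), for the 87 KRAB members in each line; red points are KRAB members on chromosome 4. The red points lie below 0 in the YTHDC1 line, and points with much shared sequence are found on chromosome 4 and elsewhere.

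By role, the silencing factors were not a uniform group. Of 7 members known for retroelement or imprint control (Zfp57, Zfp445, Zfp568, Zfp809, Zfp932, Zfp961 and Zfp600), 1 rose and 2 fell after METTL3 depletion. Zfp809 (chr9:22225714-22243354, plus strand) went from 48.7, 69.6 and 93.7 CPM to 32.7, 41.4 and 54.3 CPM (−0.78, SE 0.116, edgeR adjusted p = 0.00117), with overlap but lower in all 6 pairs. Zfp932, a repressor of endogenous retroviruses that shares 55.5% of its words, fell by the same amount (−0.78, adjusted p = 0.0342). Zfp57 (chr17:37001163-37010635, plus strand) went from 129, 187 and 227 CPM to 216, 222 and 251 CPM, with overlap (0.33, adjusted p = 0.0327), a call that was lost with no filter on low counts. After ZCCHC8 depletion Zfp57 rose again (0.37, adjusted p = 0.0206), as did Zfp568 (0.18, adjusted p = 0.00226). After YTHDC1 depletion none of the 7 passed edgeR's adjusted threshold, 2 passed unadjusted, and all 7 estimates were below 0. With the replicate as a block 5 of the 7 fell in that line, and in the METTL3 line 3 rose and 3 fell.

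Of 7 members tied to pluripotency or chromatin (Zfp143, Zfp207, Zfp217, Zfp219, Zfp281, Zfp462 and Zfp706), none passed edgeR's adjusted threshold in the METTL3 line (1 unadjusted) or the YTHDC1 line (2 unadjusted). With the replicate as a block 1 rose in the METTL3 line and 3 fell in the YTHDC1 line. In the ZCCHC8 line Zfp143, an activator at promoters and chromatin loop anchors, rose by 0.21 (adjusted p = 0.0032) and Zfp462 by 0.23 (adjusted p = 0.00745), and Zfp219 fell by 0.19 on the log2 scale (adjusted p = 0.00235). Both rises were lost without replicate 2. Of 8 members that act on RNA or ribosomes, Zfp346 alone passed in the METTL3 line. In the ZCCHC8 line Zfp638 (0.19, adjusted p = 0.00463) and Zfp830 (0.23, adjusted p = 0.000977) rose, and Zfp346 (−0.20, adjusted p = 0.0246) and Zfp598 (−0.17, adjusted p = 0.0105), the ubiquitin ligase that marks collided ribosomes, fell. Zfp830, Zfp346 and Zfp598 lost their calls without replicate 2. None passed in the YTHDC1 line (1 unadjusted, 3 with the block). For none of the role lists is a share of all genes given for the unadjusted counts.

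The partners of KRAB proteins were also counted. Of 11 cofactors, Setdb1, the H3K9 methyltransferase, rose (0.62, edgeR adjusted p = 0.00301) and Dnmt3b, a de novo DNA methyltransferase, fell (−0.51, adjusted p = 0.0036) after METTL3 depletion, and Dnmt3a fell (−0.38, adjusted p = 0.044) after YTHDC1 depletion. After ZCCHC8 depletion 6 rose and none fell, among them Dnmt3a (0.48, adjusted p = 1.32e-05) and Trim28 (0.13, adjusted p = 0.0331). These calls are 18.2%, 9.09% and 54.5% of the cofactors in the METTL3, YTHDC1 and ZCCHC8 lines, where 20.1%, 5.25% and 39.6% of all genes passed. The block gave 1 cofactor that rose and 4 that fell in the METTL3 line, 5 that fell in the YTHDC1 line and 9 that rose in the ZCCHC8 line, where 48.5%, 27.3% and 45.9% of all genes passed. Of 40 genes of the Zbtb, Zscan, Zkscan and Klf families, 7 rose and 1 fell, 1 rose and 4 fell, and 8 rose and 5 fell in the METTL3, YTHDC1 and ZCCHC8 lines. These are 20.0%, 12.5% and 32.5% of the families, against the same shares of all genes, and with the block they became 17 and 2, 6 and 9, and 10 and 7.

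Fewer Zfp genes passed on label than on reads. After METTL3 depletion the ratio was lower in 16 members and higher in none (limma, adjusted p under 0.05), 10.1% of members, where 27.1% of 8289 genes passed (2.96% higher and 24.1% lower) and 27.3% of like genes. The median log2 change was −0.15 in members, as in all genes tested, and 147 of 159 estimates were below 0. A ratio near 1 has little room above it. The block gave 34, where 37.5% of all genes passed, and with either replicate left out 4 or 5. The 3 with the smallest adjusted p were Zfp318 (−0.77, SE 0.097, adjusted p = 4.49e-06), Zfp511 (−0.67, SE 0.092, adjusted p = 1.08e-05) and Zfp106 (−0.40, SE 0.078, adjusted p = 0.000563). Zfp511 overlaps the antisense Tubgcp2 and lost its call without replicate 1. Zfp386 (−0.51, adjusted p = 0.0053) and Zfp935 (−0.41, adjusted p = 0.015) had lower ratios and, in the same line, fewer reads.

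In the YTHDC1 line no member passed on the ratio by limma (23 at an unadjusted p under 0.05, median −0.10), where 0.306% of 8820 genes passed, and in the ZCCHC8 line none passed (9 unadjusted, median −0.03), where 1.14% of 7251 did. The loss of label over the chase did not pass for any member in any line (limma, 6, 16 and 2 unadjusted in the METTL3, YTHDC1 and ZCCHC8 lines), where 0.471%, 0.0% and 0.0% of all genes passed the adjusted threshold. No share of all genes is given for the unadjusted counts of the ratio or the loss. Those counts therefore do not compare members with other genes. In the METTL3 line 1 member passed on the loss with the block, where 1.19% of all genes passed. The median half-life of label per table, replicate 1 then 2, was 167 and 159 min in METTL3 Ctrl cells and 125 and 181 min with dTAG. It was 150 and 125 min against 110 and 116 min in the YTHDC1 line, and 282 and 167 min against 246 and 218 min in the ZCCHC8 line. By the ratio the replicates of the METTL3 and ZCCHC8 lines moved in opposite directions, and both of the YTHDC1 line were shorter with dTAG. By the T-to-C rate the ZCCHC8 line went from 122 and 90.8 min to 139 and 110 min, longer in both replicates. The METTL3 line went from 120 and 93.7 min to 105 and 105 min, and the YTHDC1 line from 103 and 86.6 min to 89.2 and 79.7 min.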

How the data were processed

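SLAM-seq libraries of total RNA from 3 mES lines were analyzed. Per the study's methods the authors removed rRNA reads, aligned the rest to mm10 with STAR 2.5.2b (unique end-to-end alignments, mismatches up to 0.06 of the read length) and ran GRAND-SLAM on the 6 libraries of each line and replicate. Its version, its annotation release and its use of strand are not given in the sources used here. The deposited tables hold raw read counts, the new-to-total ratio as a fraction with its posterior quantiles, the signal of T-to-C conversions and T coverage, and other values (gene length), and were used as deposited. The authors' 180 remaining columns were not used. CPM is reads per 1000000 reads of the library.

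Reads were tested with edgeR 4.0.16 (TMM, filterByExpr, robust quasi-likelihood; SE is the absolute log2 fold change over the square root of F) and log2 MAP ratios (minimum 0.02) with limma 3.58.1 (trend, robust). p-values were Benjamini-Hochberg adjusted over all genes fitted, with a threshold of 0.05. Models held chase time and arm, with a slope by arm for label loss. The steps were tested on simulated data in which all libraries varied independently, so a shared replicate effect was not covered. The replicate block is used because wells of a replicate were split from 1 batch of cells. Deviations of samples with the same number correlated at 0.682 to 0.966 in the METTL3, 0.685 to 0.916 in the YTHDC1 and 0.160 to 0.424 in the ZCCHC8 line over 15 pairs of groups each. Alternatives were the block, either replicate left out, RLE factors, DESeq2 1.42.0, no filter, the posterior mean, T-to-C rate, logit and other ratio minimums.

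Members and lists were chosen with earlier results of these data known. Named genes were up to 5 members called in each direction per line by size of change, the 4 highest and 4 lowest ratios, the 3 largest differences between lines, the 3 ratio changes of smallest adjusted p, 3 chase slopes, and the role lists. Genes outside these were named after their values were seen. KRAB boxes, C2H2 fingers and shared 50-base words were found by patterns in GENCODE M21 sequences.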

Additional observations from a re-analysis of the deposited data

Results flagged for a closer look

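The response of reads to depletion differed between lines, by an interaction term in edgeR, in 32 members for METTL3 against YTHDC1, 25 for ZCCHC8 against YTHDC1 and 40 for ZCCHC8 against METTL3. These are 20.1%, 15.7% and 25.2% of members, where 20.6%, 14.4% and 23.7% of all genes passed.

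The members with the largest such differences were these, each as log2 of the first response less the second. For METTL3 less YTHDC1 they were Zfp346 (−1.06), Zfp365 (−0.93) and Zfp318 (0.90). For ZCCHC8 less YTHDC1 they were Zfp936 (1.32), Zfp386 (1.26) and Zfp329 (1.05). For ZCCHC8 less METTL3 they were Zfp935 (1.33), Zfp386 (1.29) and Zfp318 (−1.12). Zfp386 and Zfp318 each appear under 2 of the comparisons, which share a line.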

How the results depend on the processing

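Of 58 results on named genes, 50 kept their direction and their side of the threshold under all alternatives run. None reversed, and 9 values of the remaining 8 genes missed the threshold (Zfp236, Zfp143, Zfp462, Zfp346 and Zfp830 without replicate 2 and Zfp598 without either replicate in the ZCCHC8 line, the ratio of Zfp511 without replicate 1, and Zfp57 in the METTL3 line with no filter).

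The replicate block, which uses the shared culture batch, raised the counts of members called from 28 to 76 (METTL3 reads), 19 to 79 (YTHDC1 reads), 34 to 93 and 73 to 113 (chase, METTL3 and YTHDC1), 16 to 34 (METTL3 ratio), 0 to 1 (METTL3 label loss), and 32 to 79, 25 to 68 and 40 to 83 (METTL3 less YTHDC1, ZCCHC8 less YTHDC1, ZCCHC8 less METTL3). For KRAB members it gave 45 and 55 for METTL3 and YTHDC1 reads and 44, 39 and 52 for the differences, against 18, 16, 17, 17 and 22. Every named result that had passed also passed with the block, and some role-list genes passed only with it.

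With either replicate left out, where the lone sample of each time and arm is assumed to vary like the rest, the counts ranged from 64 to 95 and 40 to 78 (METTL3 and YTHDC1 reads), 72 to 88 (METTL3 chase), 4 to 5 and 0 to 1 (METTL3 and YTHDC1 ratio), 0 to 14 and 0 to 1 (METTL3 and YTHDC1 label loss), and 64 to 84, 26 to 72 and 53 to 94 (differences in the order above). For KRAB members they ranged from 35 to 56 and 31 to 54 (METTL3 and YTHDC1 reads) and 42 to 43, 18 to 44 and 29 to 55 (differences).

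DESeq2 called 31 members in the YTHDC1 line. No share of all genes is given for DESeq2 or for the fits with a replicate left out. Those counts therefore do not compare members with other genes. The T-to-C rate called 4 members in the METTL3 and 2 in the ZCCHC8 line in place of the ratio and gave a half-life of 103 min, and the logit called 1 member for METTL3 label loss. Leaving out members with at least 10% of shared words, an alternative chosen after seeing the data, gave 11 for YTHDC1 reads and 15 for ZCCHC8 less YTHDC1, and in KRAB members 10, 8 and 17 for METTL3, YTHDC1 and ZCCHC8 reads and 7 and 10 for ZCCHC8 less YTHDC1 and less METTL3. The causes were not tested.

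Limits: with 2 replicates per group, 1 clone per line and no dTAG-treated untagged cells here, clone and agent effects cannot be told apart from depletion. The 100-read minimum bounds counting error per library.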
